A study of Mus musculus with 11 samples.

Results

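The broad H3K27 domains described here are the segments at least 15000 bp wide in the list that SICER, a caller of broad enrichment, gave for a chromatin immunoprecipitation (ChIP-seq) library labelled H3K27me3. Members were chosen by a measured value of that library, the width (end minus start plus 1), and by that rule 852 of 33646 segments were broad, and they covered 19.9 Mb, against 111 Mb in the 32794 narrower segments. Acetylation of lysine 27 on histone H3 (H3K27ac) marks active promoters and enhancers, whereas its trimethylation (H3K27me3) marks genes held silent by Polycomb proteins. The list was deposited under a name that gives H3K27ac, and its content went with that name and against the label: 22 of 25 housekeeping genes had an end under a segment of any width, against 1 of 25 developmental regulators, where all protein-coding genes had 43.1%. The segments are therefore called acetylation-like H3K27 segments. In cells of many kinds, long unbroken stretches of acetylated chromatin lie over clusters of enhancers near genes that define the cell's identity.

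The cells were 8946, a murine T-cell acute lymphoblastic leukaemia line, into which retroviruses had brought a tagged Zmiz1 (with an NGFR reporter) and an active Notch1 (with GFP), and which were sorted for both reporters. The HA line carried HA-Zmiz1 and the Notch1 construct DEGFDLNRDP, and was profiled for HA-Zmiz1 and ICN1 (the intracellular, active form of Notch1). The Flag line carried Flag-Zmiz1 and the construct L1601PDP, and was profiled for Flag-Zmiz1, ICN1, Rbpj, H3K4me1, H3K4me3 and the libraries labelled H3K27me3 and H3K27ac. Each line had an input library, which made 11 libraries in all with 1 per target and line, so no value has a replicate. ICN1 binds DNA through Rbpj and switches on its target genes there, and Zmiz1 is a PIAS-like coactivator that binds Notch1. Tag, Notch1 construct and library change together between the lines and cannot be told apart, and the Flag line gave every histone library, so that peaks of the HA line are read against chromatin of another line. Factor chromatin was fixed with DSG and formaldehyde, and histone chromatin with formaldehyde alone.

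The factor libraries held 13.5 to 19 M filtered tags, and the inputs 26.8 M (HA line) and 36.4 M (Flag line). The peak lists held 4984 HA-Zmiz1, 414 HA-line ICN1, 20993 Rbpj, 581 Flag-Zmiz1 and 82 Flag-line ICN1 peaks. The depth of the histone libraries is unknown. Intervals are exact 95% intervals (Clopper-Pearson for shares, Poisson for densities), cover counting error only, and take neighbouring regions as independent, which they are not. Among the marker genes fixed to check the cell type, 9 of 9 T-cell genes had an end under a segment of any width. So had 1 of 5 B-cell genes (Cd79a) and 1 of 5 myeloid genes (Itgam), where 43.1% of all protein-coding genes had one. The lists of 5 are too short to be told apart from that share.

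To show what DNA the broad segments hold, 4 gene starts under a broad segment are given first: that with the strongest Rbpj peak among those matching a core Rbpj motif, and the 3 of the 8 strongest that also had an HA-Zmiz1 peak. Each is the 250 bases before a RefSeq start (GRCm38.p6, the same build as mm10), written 5′ to 3′ on the gene's strand, with the core motif TGGGAA, or its reverse complement TTCCCA, in capitals. Hdac7, a class IIa histone deacetylase abundant in thymocytes, lay at chr15:97844503-97844752 on the minus strand and had an Rbpj peak with a fold of 21.4. Sox4, a transcription factor of early lymphocytes, lay at chr13:28953700-28953949 on the minus strand and had peak folds of 11.8 for Rbpj and 6.93 for HA-Zmiz1. Abraxas2, a scaffold subunit of a deubiquitinating complex, lay at chr7:132858975-132859224 on the plus strand with folds of 11.7 for Rbpj and 4.27 for HA-Zmiz1. Cd8a, which encodes a chain of the CD8 co-receptor, lay at chr6:71373177-71373426 on the plus strand with folds of 11.0 for Rbpj and 7.00 for HA-Zmiz1. The widths of the segments over these starts were 34.4 kb for Hdac7, 23.8 kb for Sox4, 15 kb for Abraxas2 and 34.4 kb for Cd8a.
Hdac7: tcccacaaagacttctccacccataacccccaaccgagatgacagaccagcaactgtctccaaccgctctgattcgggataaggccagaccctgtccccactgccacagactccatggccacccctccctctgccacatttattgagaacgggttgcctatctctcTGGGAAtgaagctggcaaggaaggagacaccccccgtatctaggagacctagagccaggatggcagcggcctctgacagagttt
Sox4: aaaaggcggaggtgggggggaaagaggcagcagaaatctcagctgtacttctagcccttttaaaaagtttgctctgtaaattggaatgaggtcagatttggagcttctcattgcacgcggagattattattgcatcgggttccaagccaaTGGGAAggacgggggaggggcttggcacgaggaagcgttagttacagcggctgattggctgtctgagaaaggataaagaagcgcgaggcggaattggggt
Abraxas2: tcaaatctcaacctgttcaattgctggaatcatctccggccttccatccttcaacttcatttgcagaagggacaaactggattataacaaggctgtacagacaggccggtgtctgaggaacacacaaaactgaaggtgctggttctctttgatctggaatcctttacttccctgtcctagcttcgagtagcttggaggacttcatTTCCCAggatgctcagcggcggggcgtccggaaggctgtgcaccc
Cd8a: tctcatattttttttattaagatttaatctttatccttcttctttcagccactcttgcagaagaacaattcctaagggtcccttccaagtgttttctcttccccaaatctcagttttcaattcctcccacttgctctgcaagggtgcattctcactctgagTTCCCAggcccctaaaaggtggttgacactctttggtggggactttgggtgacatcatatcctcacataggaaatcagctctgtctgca

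The motif was in 16.7% of the 221 starts under a broad segment whose window held an Rbpj peak (interval 12.1 to 22.3), against 22.7% of the 172 without one (16.6 to 29.7). Across all 21263 starts of coding genes in the table it was in 20.9%, and it was in 19.3% of the 393 under broad segments and 19.5% of the 9030 under narrower ones. Rbpj peaks overlapped 56.2% of the windows under broad segments (51.2 to 61.2), against 64.3% under narrower segments (63.3 to 65.3), where 29.5% of all 21263 had one. HA-Zmiz1 peaks overlapped 10.9% (8.03 to 14.5), against 5.56%, where 2.58% of all did. HA-line ICN1 peaks overlapped none of the 393 windows, which allows a share of up to 0.934%, against 0.388% under narrower segments, where 0.174% of all had one. A gene can have several starts in the table.

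Of 1005 microRNA hairpins, 13 (1.29%) lay in broad segments and 144 in a segment of any width, where 2.1% of protein-coding genes had an end in a broad one. Both mature strands of Mir142, a microRNA of blood cells, are shown because its segment held peaks of 3 factor lists, and the 5p strand of Mir21a, often high in tumours, is shown beside them as a segment with a single peak. The seed (bases 2 to 8) is in capitals. Mir142 lay in a segment of 16.6 kb (chr11:87743600-87760199, fold 9.32) that held 9 Rbpj, 3 HA-Zmiz1 and 1 HA-line ICN1 peaks. Mir21a lay in a segment of 21.0 kb (chr11:86574000-86594999, fold 4.24) that held 1 Rbpj peak and none of the other lists.
mmu-miR-142a-5p: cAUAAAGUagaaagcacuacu
mmu-miR-142a-3p: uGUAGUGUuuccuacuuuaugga
mmu-miR-21a-5p: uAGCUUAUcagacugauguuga

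Widths ran from 15 to 113.6 kb with a median of 19.8 kb. The width rule chose the segments, and the read counts come from the same library, so these values are descriptions. Fold over the control, as the authors' SICER list gives it, had a median of 5.03 (1.34 to 13.6) in broad segments, against 2.80 in narrower ones. Precipitation reads per kb had medians of 35.0, 41.7, 58.9 and 70.8 in segments under 2 kb, of 2 to 5, 5 to 10 and 10 to 15 kb, and 86.6 in broad segments. Control reads per kb were 22, 24.4, 25.5, 26.3 and 27.1 in the same order. The broad segments held 23.1% of the precipitation reads in all segments and 15.2% of the bases. The threshold cut a smooth range: 25 segments were exactly 15 kb wide, in steps of 200 bp, and 18 were 14.8 kb wide. Of the first 3 by position on each side, those of 15 kb overlapped Stau2, Nck2 and no coding gene and held 0, 1 and 2 HA-Zmiz1 peaks. The 3 of 14.8 kb overlapped no coding gene, Mgat5 and Slamf1 and held 3, 0 and 0. Some broad segments were close neighbours, with 58 of 832 neighbouring pairs within 2 kb of each other and 92 within 10 kb, at a median spacing of 678 kb.

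The broad segments lay almost wholly in H3K4me1, the mark of enhancers and promoter flanks, and in part in H3K4me3, the mark of active starts. H3K4me1 covered 94.5% of their bases, against 80.5% in narrower segments, and H3K4me3 48.7%, against 41.8%. The share of segments touching H3K4me3 was 98.9% against 57.2%, where 58.2% of all segments did, and for H3K4me1 it was 99.9% against 87.5%, where 87.8% of all segments did. A broad segment held a median of 3 separate H3K4me3 segments and up to 12. H3K4me3 reached 75% of the bases or more in 89 broad segments and was missing from 9. The library labelled H3K27ac, which was deposited under a name that gives H3K27me3, covered 0.0522% of the bases of broad segments, against 1.00% in narrower ones. It touched 6 broad segments of 852, where 2.88% of all segments were touched. Those were at Lef1 (18.6% of the segment's bases), Gpr25 (12.0%), Ncald (10.6%), Kcna2 (3.88%), Fli1 (3.23%) and Fyb (0.500%).

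**Figure D1:**
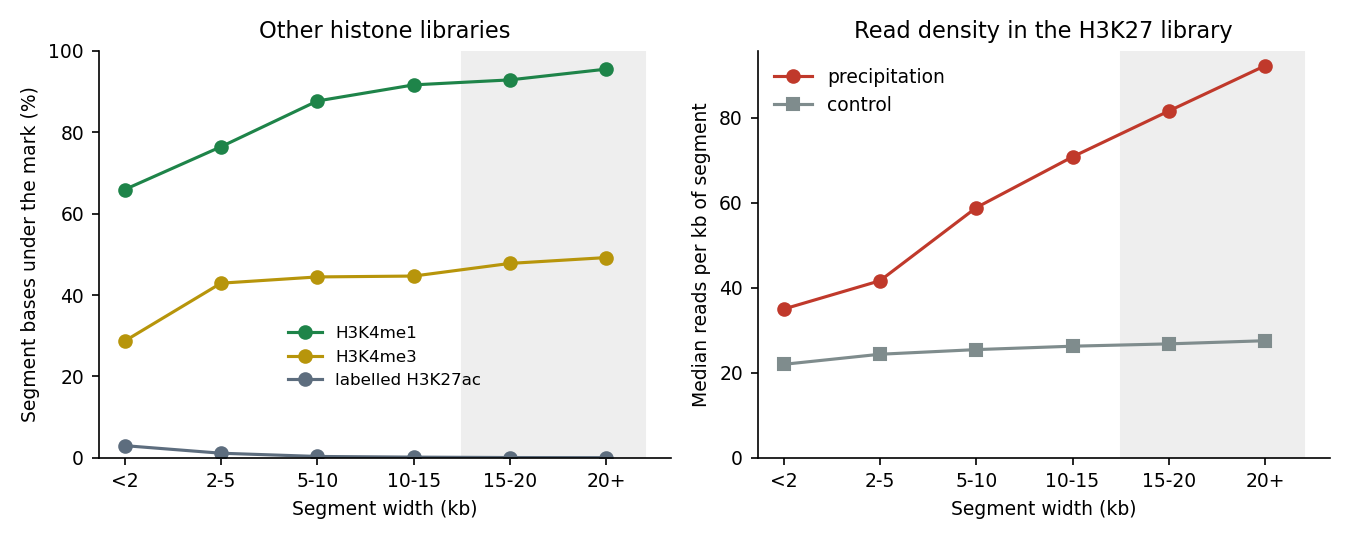
Left, percent of the bases of acetylation-like H3K27 segments under H3K4me1, H3K4me3 and the library labelled H3K27ac, by segment width in kb, each point pooling the bases of a width class. Right, median reads per kb of segment in the precipitation and control of the H3K27 library, with the broad classes shaded in both panels; H3K4me1 coverage reaches 95.5% at 20 kb and over, and the control stays between 22 and 27.6 reads per kb.

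Genes of the T-cell lists lay in broad segments at higher shares than coding genes as a whole. A gene is said here and below to lie in a segment where it has an end inside, and it can extend beyond the segment. Of 21887 protein-coding genes, 459 (2.1%) had an end inside a broad segment, 685 overlapped one and 91 lay wholly inside. The T-cell receptor and surface list had an end in a broad segment for 16 of 30 genes (53.3%, 34.3 to 71.7), and in a segment of any width for 30 of 30. The T-lineage transcription regulators had 12 of 30 (40.0%, 22.7 to 59.4), with 25 in a segment of any width. Housekeeping genes had 0 of 25, which allows up to 13.7% and so includes the 2.1% of all coding genes, and 22 of them lay under a segment of any width. Notch pathway and target genes had 2 of 28 (Igf1r and Ccnd3), with 16 under any segment, and growth and survival genes 3 of 24 (Mcl1 and Cdkn1b among them), with 19. Developmental regulators had 0 of 25 (upper limit 13.7%). Among 12 B-cell genes there were 0 (upper limit 26.5%), and among 12 myeloid genes 1 (Itgam, an integrin chain; 0.211 to 38.5%). The intervals of these lists, and that of the Notch list (0.877 to 23.5%), include the 2.1% of all coding genes. The lists were drawn up with results of these data known.

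**Figure D2:**
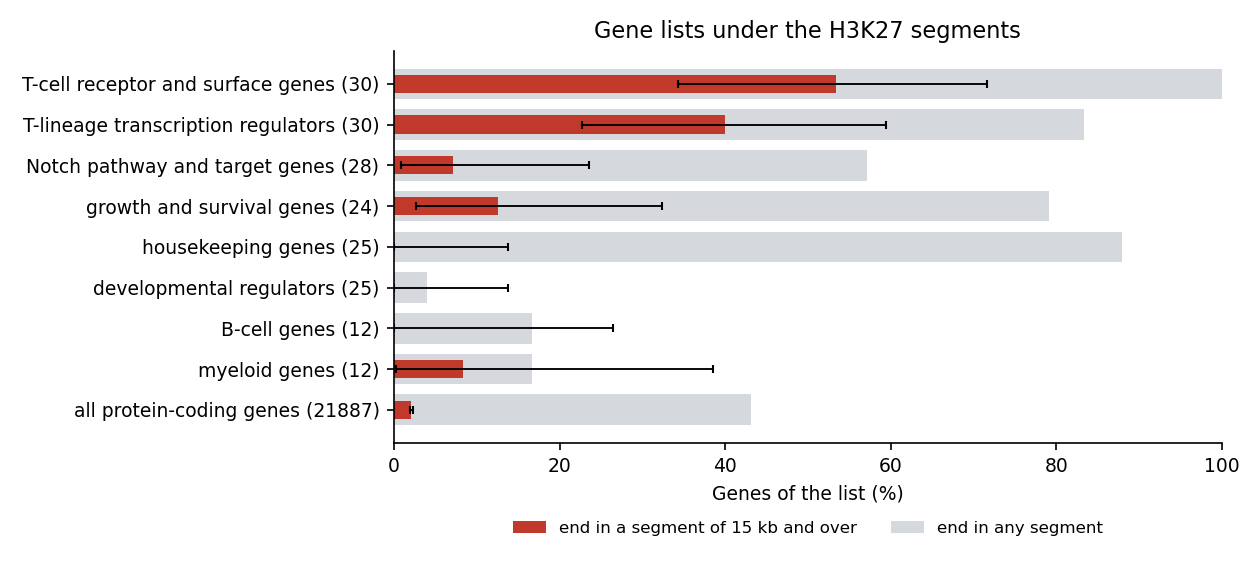
Percent of the genes of each list (number of genes in brackets) with an end inside a segment of 15 kb and over (red, with exact 95% intervals) and inside a segment of any width (grey). The 2 T-cell lists reach 53.3% and 40.0% in red, against 2.1% of all protein-coding genes. Housekeeping genes are high in grey and at 0 in red, with an upper limit of 13.7% that includes the 2.1%.

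Among the receptor and co-receptor genes, Cd8a and Cd8b1, which encode the chains of CD8, lay in neighbouring broad segments of 34.4 and 30.4 kb with folds of 7.68 and 9.04. The Cd8a segment (chr6:71350200-71384599) held 4 HA-Zmiz1, 1 HA-line ICN1 and 7 Rbpj peaks, and the Cd8b1 segment 4, 0 and 5. Cd4, the other co-receptor, lay in a segment of 35.0 kb with 4 HA-Zmiz1, 1 HA-line ICN1 and 5 Rbpj peaks. Cd3e, a signalling chain of the receptor, lay in 32.4 kb with 2, 1 and 4 peaks of those lists. H3K4me3 covered 82.0% of the Cd8a segment, 91.4% of the Cd8b1 segment, 57.7% of the Cd4 segment and 48.8% of the Cd3e segment. Among the receptor's own constant genes, 2 (Trac and Trbc2) lay in broad segments. A segment of 39.6 kb (chr14:54202600-54242199) over Dad1 held Trac and 15 joining segments with 3 HA-Zmiz1, 3 HA-line ICN1 and 4 Rbpj peaks. Trbc2 lay in a segment of 25.2 kb (chr6:41543400-41568599) with a fold of 11.9 and 3, 1 and 4 peaks. These receptor genes are of other gene types and stand outside the coding counts.

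Surface and signalling genes of T cells were spread over a wide range of peak counts. Thy1, a surface glycoprotein of mouse T cells, lay in 46.0 kb with 4 HA-Zmiz1 and 10 Rbpj peaks. Ccr9, the chemokine receptor of thymocytes, had 7 HA-Zmiz1 and 5 Rbpj peaks in 21.4 kb. Dntt, the template-free polymerase of receptor recombination, had 3 HA-Zmiz1, 1 HA-line ICN1 and 5 Rbpj peaks in 50.6 kb. At the low end, Rag2, a subunit of the recombinase, had 1 Rbpj peak and no HA-Zmiz1 peak in 16.2 kb, and Il7r, the interleukin-7 receptor chain, the same in 18.6 kb with a fold of 2.82. Cd2, Cd27, Cd28, Lat and Ptprc were among the other list genes with an end in a broad segment.

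Several transcription regulators of the T lineage lay in the widest segments. Tcf7, which encodes TCF-1, shared a segment of 78.2 kb (chr11:52239000-52317199) with Skp1, a subunit of SCF ubiquitin ligases, and it held 3 HA-Zmiz1, 2 HA-line ICN1 and 11 Rbpj peaks. Ets1 had an end in a segment of 71.8 kb, which covered 54.8% of the gene and held 7 HA-Zmiz1 and 7 Rbpj peaks. Runx1 had 2 broad segments of 69.0 and 41.6 kb with 5 and 3 HA-Zmiz1 and 6 and 3 Rbpj peaks. Ikzf1 (Ikaros) had 2 with unequal content: that of 20.8 kb at a gene end held 0 HA-Zmiz1 and 1 Rbpj peak, and that of 39.8 kb inside the gene 7 HA-Zmiz1, 2 HA-line ICN1 and 8 Rbpj peaks. Ikzf3 (Aiolos) had 54.2 and 44.0 kb with 7 and 2 HA-Zmiz1 and 8 and 6 Rbpj peaks, and together these covered 98.8% of the gene. Myb lay in a segment of 24.2 kb with a fold of 2.51 and no peak of the 5 lists. Lef1, Tcf12, Gfi1, Satb1 and Foxo1 were among the others with an end inside.

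Of the Notch and growth genes, Ccnd3, the cyclin D3 gene of thymocyte proliferation, shared with Taf8 a segment of 62.4 kb (chr17:47501200-47563599, fold 9.21) with 5 HA-Zmiz1, 2 HA-line ICN1 and 12 Rbpj peaks. Igf1r, a growth factor receptor, had segments of 26.0 and 15.6 kb with 2 and 1 Rbpj peaks and none of HA-Zmiz1 or ICN1. Bcl2l1, which encodes the survival protein BCL-XL, held inside the gene a segment of 67.2 kb with 4 HA-Zmiz1, 1 HA-line ICN1 and 11 Rbpj peaks. Mcl1, another survival gene, lay in 21.2 kb with 2 HA-Zmiz1 and 5 Rbpj peaks, and Cdkn1b, a cell-cycle inhibitor, in 18.8 kb with 1 and 5 and H3K4me3 over all of it.

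Myc itself lay under a segment of 11.6 kb and so was not covered by a broad one, but 9 broad segments lay within 2000 kb of it, all toward higher coordinates, and 8 of them between 1255 and 1602 kb from its end. A Notch-dependent enhancer of Myc in T cells is known at about this distance. The segment at 1255 kb (chr15:63245600-63271999) held a single site with peaks of 4 lists, where the fold was 26.6 for HA-line ICN1, 22.2 for Flag-line ICN1, 20.2 for HA-Zmiz1 and 19.3 for Rbpj. The next segment, of 55.8 kb at 1282 kb, held 4 HA-Zmiz1, 2 HA-line ICN1 and 4 Rbpj peaks. Of the other 7, 3 held 1 or 2 HA-Zmiz1 peaks and 4 held no peak, with segment folds of 1.57, 1.91, 2.20 and 2.70 in those 4.

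The widest segment of all, 113.6 kb on chromosome 15 over Enthd1 and Grap2 (an adaptor of T-cell receptor signalling), held 5 HA-Zmiz1, 15 Rbpj and 1 Flag-Zmiz1 peaks. A segment of 101.0 kb inside Mad1l1, a spindle checkpoint gene, held 7 HA-Zmiz1, 1 HA-line ICN1 and 9 Rbpj peaks. Lrig1, a regulator of growth factor receptors, had 83.6 kb with 6 HA-Zmiz1 and 11 Rbpj peaks. The rest of the 20 widest ran from 54.4 to 78.2 kb and each held 1 to 7 HA-Zmiz1 and 3 to 18 Rbpj peaks, where Patz1, Pik3ip1 and Limk2 shared the 18. The most HA-Zmiz1 peaks, 8, were in segments of 47.6 kb inside Clec16a, 35.0 kb near Klf13 and 40.2 kb over 9 linker and core histone genes from H1f2 to H1f1 on chromosome 13. The most HA-line ICN1 peaks, 4, were in 54.0 kb on chromosome 12 (chr12:107112400-107166399), whose nearest coding gene was Gm52008. Some genes were covered by several broad segments: 103 genes had at least 2 and Clec16a had 5, which covered 60.5% of it.

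**Figure D3:**
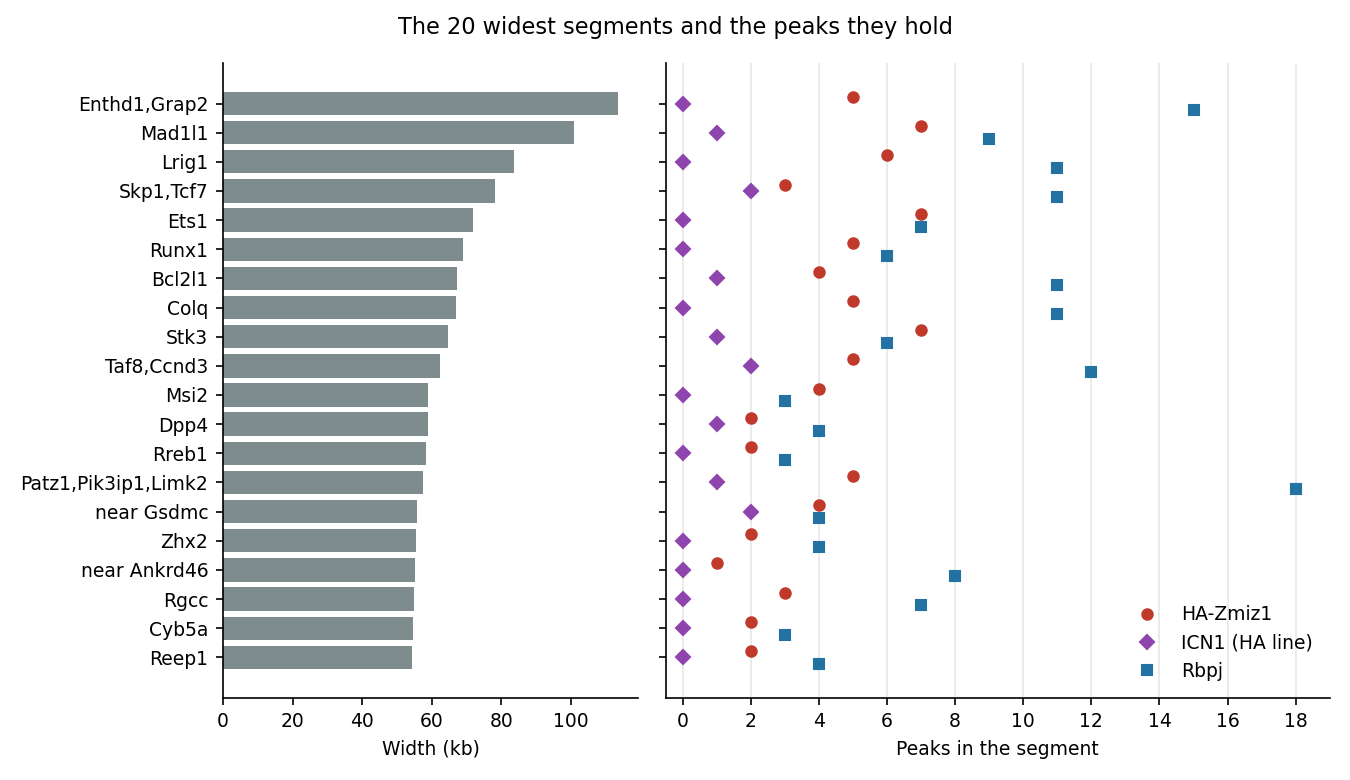
The 20 widest segments from the top down, named by the coding genes they overlap or, where there are none, the nearest gene: width in kb (left) and the number of HA-Zmiz1 (circles), HA-line ICN1 (diamonds) and Rbpj (squares) peaks in each (right). All 20 hold at least 1 HA-Zmiz1 and 3 Rbpj peaks.

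Most broad segments held a factor peak. An HA-Zmiz1 peak was in 632 (74.2%, 71.1 to 77.1), against 9.16% of narrower segments, where 10.8% of all segments had one. An Rbpj peak was in 772 (90.6%, 88.5 to 92.5), against 33.8%, where 35.2% of all had one. HA-line ICN1 was in 114 (13.4%, 11.2 to 15.9), against 0.689%, where 1.01% of all had one. Peaks of all of Rbpj, HA-Zmiz1 and HA-line ICN1 were in 114 broad segments, Rbpj and HA-Zmiz1 without that ICN1 in 497, and Rbpj alone of these in 161. HA-line ICN1 without HA-Zmiz1 was in 0 of 852 broad segments (upper limit 0.432%), against 0.180% of narrower ones, which lies within that limit. Among segments that held HA-line ICN1, it was 0 of 114 broad, 59 of 226 narrower and 23 of 141 of 5 to 15 kb. A broad segment has more length in which to hold an HA-Zmiz1 peak. Of the broad segments, 59 (6.92%) had no peak of any list, against 64.5% of narrower ones, where 63% of all segments had none. Per broad segment, 317 held 1 HA-Zmiz1 peak, 179 held 2, 77 held 3 and 59 held 4 or more.

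Longer segments can hold more peaks by length, so densities per Mb of segment were set beside these counts. HA-Zmiz1 had 60.3 peaks per Mb in broad segments (57.0 to 63.9), against 31.2 in narrower ones (30.1 to 32.2), a ratio of 1.94 (1.81 to 2.07), and against 44.0 in segments of 5 to 15 kb, a ratio of 1.37 (1.28 to 1.47). HA-line ICN1 had 6.83 per Mb, against 2.11, a ratio of 3.24 (2.60 to 4.02), and 2.31 (1.81 to 2.94) against segments of 5 to 15 kb. Rbpj went the other way, with 117 per Mb against 142, a ratio of 0.826 (0.791 to 0.863). By width class, HA-Zmiz1 had 12.5, 24.0, 40.4, 52.5, 54.3 and 63.9 peaks per Mb in segments under 2 kb, of 2 to 5, 5 to 10, 10 to 15 and 15 to 20 kb, and of 20 kb and over. Rbpj had 125, 158, 134, 120, 120 and 116 in the same classes. Within the broad segments, HA-line ICN1 had 4.44 per Mb at 15 to 20 kb (3.05 to 6.23) and 8.25 at 20 kb and over (6.73 to 10.0). Read density and fold of the H3K27 library move with width in the same way, and their part in these densities was not tested. When the list was restricted to the upper 50% of segments by fold, the ratios were 1.42 for HA-Zmiz1, 2.48 for HA-line ICN1 and 0.599 for Rbpj.

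**Figure D4:**
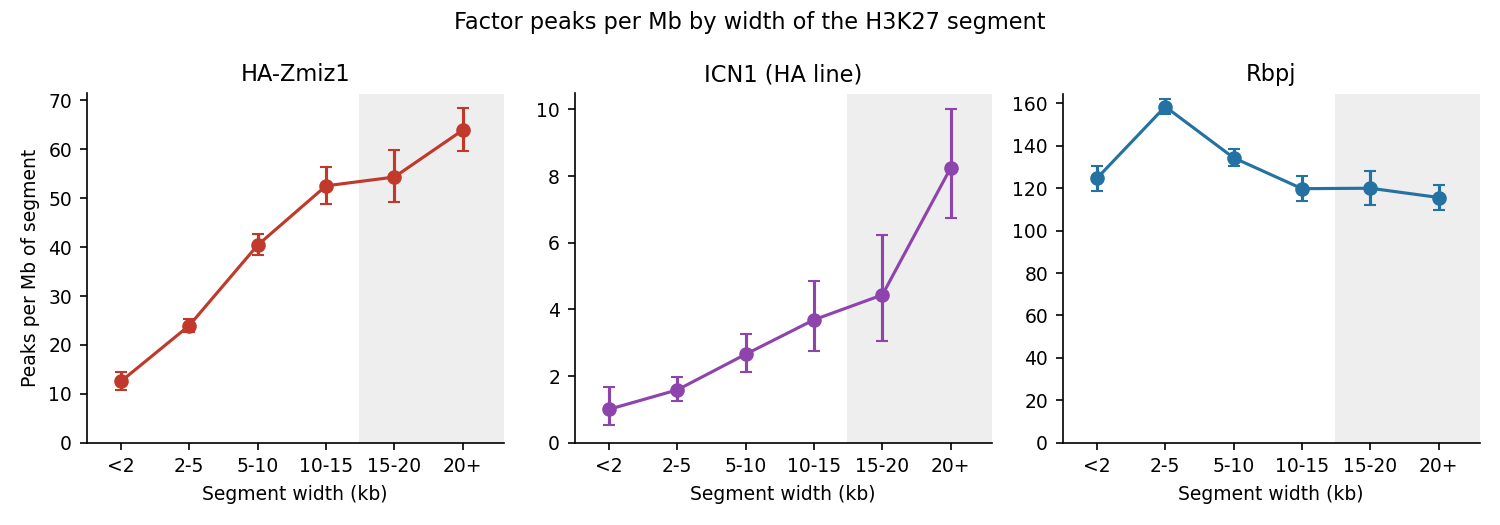
Peaks per Mb of acetylation-like H3K27 segment (vertical axes, each from 0 and each with its own scale) by segment width in kb, for HA-Zmiz1, HA-line ICN1 and Rbpj, with exact Poisson 95% intervals and the broad classes shaded. HA-Zmiz1 and HA-line ICN1 are denser in wider classes, and Rbpj is highest at 2 to 5 kb (158 per Mb).

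The Rbpj density turned on distance from gene ends, a split chosen after the data were seen. Bases within 1 kb of a coding gene end made up 5.13% of broad segments and 14.6% of narrower ones. There, Rbpj had 401 summits per Mb in broad segments (363 to 442), against 512 in narrower ones (501 to 523), a ratio of 0.784. Over 10 kb from a gene end it had 95.9 per Mb (90.8 to 101), against 66.8 (64.8 to 68.9), a ratio of 1.44 (1.35 to 1.53), so the direction was the reverse of that over all bases. HA-Zmiz1 was denser in broad segments in both places, with ratios of 2.08 (1.68 to 2.55) within 1 kb and 1.95 (1.79 to 2.12) over 10 kb. HA-line ICN1 had 6.62 per Mb over 10 kb away, against 2.17, a ratio of 3.05 (2.30 to 4.02). Against segments of 5 to 15 kb, the ratios over 10 kb away were smaller. They were 1.17 (1.09 to 1.26) for Rbpj, 1.31 (1.20 to 1.44) for HA-Zmiz1 and 2.08 (1.53 to 2.82) for HA-line ICN1. Within 1 kb, against the same segments, they were 0.778 for Rbpj and 1.33 (1.06 to 1.65) for HA-Zmiz1. As shares of peaks, 17.6% of Rbpj peaks in broad segments lay within 1 kb of a gene end, against 53.3% in narrower ones, where 44.3% of all Rbpj peaks did. For HA-Zmiz1 the shares were 8.82% against 23.5%, where 18.6% of all its peaks did.

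The share of Rbpj peaks that carried HA-Zmiz1 was higher in broad segments. An HA-Zmiz1 peak overlapped 957 of 2335 Rbpj peaks there (41.0%, 39.0 to 43.0), against 2450 of 15759 in narrower segments (15.5%, 15 to 16.1), 24.4% in segments of 5 to 15 kb and 5.07% outside all segments, where 16.9% of all Rbpj peaks had one. The comparison and its splits were chosen after the data were seen. Over 10 kb from gene ends the shares were 48.6% (45.8 to 51.3) against 28.8% (27.4 to 30.2), and within 1 kb 22% (18 to 26.3) against 8.31% (7.72 to 8.92). In the lower 50% of Rbpj peaks by fold they were 30.1% against 12.1%, and in the upper 50% 51.7% against 18.7%. Of HA-Zmiz1 peaks, 79.1% in broad segments overlapped Rbpj, against 70.9% in narrower ones, where 71.3% of all did. These peaks come from different lines with separate inputs.

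**Figure D5:**
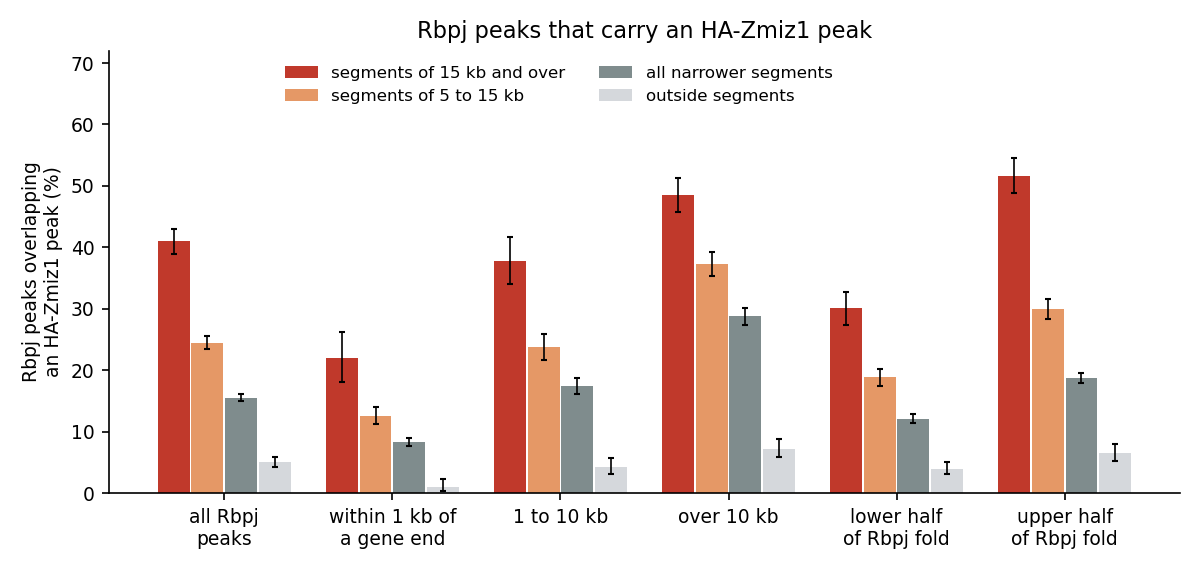
Percent of Rbpj peaks that overlap an HA-Zmiz1 peak by at least 1 bp, for Rbpj peaks in segments of 15 kb and over, of 5 to 15 kb, in all narrower segments and outside segments, over all peaks, by distance of the summit from a coding gene end, and by Rbpj fold; bars start at 0 and lines are exact 95% intervals. The broad segments have the highest share in every split shown, 41.0% over all peaks against 15.5% in narrower segments.

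HA-line ICN1 peaks in broad segments were 136 of 414 in the list, and 35.6% of the 382 with a local input below 10 times the library mean. HA-Zmiz1 overlapped 121 of those 136 (89.0%, 82.5 to 93.7), against 157 of 234 in narrower segments (67.1%, 60.7 to 73.1) and 76.8% in segments of 5 to 15 kb, where 72.9% of all had it. Both lists share the HA-line input, and neighbouring ICN1 peaks can share a single HA-Zmiz1 peak. Over 10 kb from gene ends the share was 86.5% (77.6 to 92.8), against 76.9% in narrower segments (68.8 to 83.7), intervals that overlap. In segments of 5 to 15 kb it was 83.1% there. At 1 to 10 kb it was 97.4% against 66.7%, and within 1 kb 6 of 8 peaks against 22 of 52. Among ICN1 peaks of higher fold it was 86.8%, against 73.1% in narrower segments and 84.8% in those of 5 to 15 kb. Among those of lower fold it was 91.7%, against 60.9% and 66.7%. Rbpj overlapped 135 of the 136, against 227 of 234, where 96.6% of all had it. Of Rbpj peaks, 5.44% in broad segments carried HA-line ICN1 (4.55 to 6.44), against 1.45% in narrower ones, where 1.84% of all did, and 9.48% of HA-Zmiz1 peaks did, against 4.53%, where 5.92% of all did. Fold of the 136 peaks had a median of 6.65 (3.99 to 26.6), and they lay a median of 20.9 kb from a gene end (0.104 to 520). The peaks with the highest folds after that beyond Myc were inside Lpp (24.1), near Kcng3 (21.3), inside Stk3, which encodes the Hippo kinase MST2 (20.7), 163 kb from Lef1 (18.2) and 37.3 kb from an end of Ccnd3 (17.2).

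Flag-line ICN1 gave 12 broad segments a peak (1.41%, 0.730 to 2.45), against 18 narrower ones (0.0549%), where 0.0892% of all had one. All 12 were 20 kb wide or more. These 12 peaks were among the 29 in that list with a local input below 10 times the library mean. Each of the 12 overlapped an Rbpj and an HA-line ICN1 peak and 10 overlapped HA-Zmiz1, with 0 overlapping Flag-Zmiz1. Segments of 5 to 15 kb were close to this, with 10, 9, 8 and 0 of 10 peaks in the same order. In all narrower segments it was 24, 23, 18 and 16 of 30, and 19 of the 30 had a local input of 10 or more times the library mean. Outside segments it was 26, 16, 17 and 26 of 40, and 34 of the 40 had such an input. Folds of the 12 peaks were 3.86 to 22.2 (median 7.29) in the Flag line, and 4.39 to 26.6 (median 14.3) for the HA-line peaks they overlapped. After the site beyond Myc, the highest were in the Iftap segment outside the gene (14.8 in the Flag line, 8.78 in the HA line), inside Nck2, an adaptor of T-cell receptor signalling (12.1 and 16.8), and near Kcng3 (10.7 and 21.3). The ratio of densities was 2.23 (1.04 to 4.49) over all peaks and 6.08 (2.46 to 15.2) without peaks of high local input, none of which lay in a broad segment. It was 1.15 (0.568 to 2.24) with gaps up to 2 kb joined, 1.56 (0.570 to 3.71) for peaks at a p of 1e-10 or less and 1.94 (0.983 to 3.74) at a width of 10 kb. These 3 intervals include 1, as does that without chromosome 15, where the ratio was 2.31 (0.995 to 4.96). The intervals of the other alternatives lay above 1.

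Flag-Zmiz1 had 9 peaks in 9 broad segments (1.06%, 0.484 to 2.00), against 49 narrower segments (0.149%), where 0.172% of all had one, and its density of 0.452 per Mb against 0.531 gave a ratio of 0.850 (0.371 to 1.73). The ratio was 1.57 in the upper 50% of segments by fold, 1.14 without peaks of high local input and 1.27 against segments of 5 to 15 kb, so with 9 peaks its direction was not settled. None of the 9 overlapped a peak of the other 4 lists (upper limit 33.6%), although each of their segments held HA-Zmiz1 and Rbpj peaks elsewhere. In segments of 5 to 15 kb it was 0 of 17. Rbpj overlapped 15 of 59 Flag-Zmiz1 peaks in all narrower segments (25.4%) and 70 of 513 outside segments (13.6%). HA-Zmiz1 overlapped 9 of the 59 (15.3%) and 18 of the 513 (3.51%). These shares lie within that limit, so the 9 peaks do not set broad segments apart. Folds of the 9 were 5.49 to 9.78, with the highest in the segments of Grap2 (9.78) and Tnfrsf8 (9.58). Summits of 4 of the 9 lay in H3K4me3, against 98.0% of HA-Zmiz1, 96.3% of Rbpj and 94.9% of HA-line ICN1 summits in broad segments.

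Summits of HA-Zmiz1, Rbpj and HA-line ICN1 were less often central in broad segments than in those of 5 to 15 kb. The central 50% of a broad segment held 65.1% of HA-Zmiz1 summits (62.3 to 67.8), against 76.0% in segments of 5 to 15 kb (74.1 to 77.8). For Rbpj it was 57.6% (55.6 to 59.6), against 69.2% (68.0 to 70.3), and for HA-line ICN1 66.2% (57.6 to 74.1), against 81.0% (73.6 to 87.1). The sparse lists were too small to give a direction. Flag-line ICN1 had 12 of 12 (73.5 to 100%) against 9 of 10 (55.5 to 99.7%). Flag-Zmiz1 had 5 of 9 (21.2 to 86.3%) against 8 of 16 (24.7 to 75.3%). Within the broad segments, HA-Zmiz1 peaks that overlapped Rbpj had a median fold of 7.36, and the 251 that did not had 6.11. Rbpj peaks with HA-Zmiz1 had a median fold of 7.29, and those without had 6.09.

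By position, 343 broad segments (40.3%) held an end of a coding gene, against 24.9% of narrower ones, where 25.2% of all did. A broad segment has more length in which to hold an end. Per base the direction was the opposite, with 5.13% of broad bases within 1 kb of a gene end. It was 14.6% in narrower segments and 9.68% in those of 5 to 15 kb. Of the other broad segments, 326 lay inside a gene and 183 overlapped no coding gene. Of the 183, 60 lay over 100 kb from any coding gene, and 88 broad segments overlapped no gene of any type in the table. HA-Zmiz1 was in 75.2% of those with a gene end (70.3 to 79.7), 70.6% of those inside a gene (65.3 to 75.4) and 78.7% of those without a coding gene (72 to 84.4). HA-line ICN1 was in 16%, 8.59% and 16.9% of them, and Rbpj in 94.2%, 86.5% and 91.3%. The median share of bases under H3K4me3 was 58.3%, 43.0% and 37.5%.

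Chromosome 15 had 99 broad segments of 1663 (5.95%, 4.86 to 7.20), against 1.59 to 3.40% on the other autosomes, and X had 3 of 596 (0.503%). Control reads per kb of narrower segments were 33.1 on chromosome 15, against 24.1 to 25.4 on the other autosomes and 14.4 on X, and the part of this in the count was not tested. The broad segments of chromosome 15 had a lower median fold, 3.57 against 5.16 elsewhere, and 35 of the 99 were under a fold of 3, against 39 of the 753 on other chromosomes. HA-Zmiz1 was in 61.6% of them (51.3 to 71.2), against 75.8% elsewhere (72.6 to 78.8). Over the whole genome, the 74 broad segments under a fold of 3 held an HA-Zmiz1 peak in 33.8% (23.2 to 45.7), against 78.0% of the 778 at 3 and over (74.9 to 80.9). Without chromosome 15, the density ratios were 1.94 for HA-Zmiz1, 3.17 for HA-line ICN1 and 0.819 for Rbpj.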

How the data were processed

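Per the submitters' processing notes, reads were handled with Bowtie 0.12.7, FastQC 0.10.0, MACS2 2.0.10, SICER 1.1 and HOMER 4.2 on the mm10 build. Per the file headers, MACS 2.0.10.20120913 called the peaks of a line against that line's input, at a p limit of 1e-05. Each deposited peak carries a pileup signal, a fold enrichment over local input (a ratio) and a −log10 p-value, and each deposited segment carries precipitation and control read counts, a fold (ratio), and a p-value with its false discovery rate, all computed by the authors. The window and gap that SICER was run with, which bear on width, are not given in the sources used here beyond widths in steps of 200 bp.

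From these lists, overlaps of at least 1 bp were counted with Python 3.11.15, pandas 2.3.3, numpy 2.4.6 and SciPy 1.17.1, and the overlap, density and interval steps were tested on simulated data. Local input at a peak was taken as (pileup + 1) / fold − 1, and called high at 10 or more times the library mean. Gene positions and sequences are from RefSeq (GRCm38.p6). As the gene table lacks strand and exons, a peak's distance was taken to whichever gene end was closer. All 8 gene lists matched by symbol. Named are the 20 widest segments, the 10 with most HA-Zmiz1 and 10 with most Rbpj peaks, up to 20 with HA-line ICN1, those with Flag-Zmiz1 or Flag-line ICN1, the 3 nearest the threshold on each side, list genes with an end inside, and up to 8 promoters. The segments distal to Myc, those of the T-cell receptor constant genes, Mir142 and Mir21a were named after their values were seen. The members and lists were chosen with earlier results of these data known. With 1 library per target no test between groups was made. Alternatives covered the width threshold, segment fold, joined gaps, peak strength, high-input peaks, summit position and the comparison class. Some genes of the lists are counted but not reported here by name.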

Additional observations from a re-analysis of the deposited data

How the results depend on the processing

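No paired analysis was possible because the numbers in the labels mark the 2 lines, with 1 library per target, and no result comes from a test. Of 148 alternative values for 24 results, 102 stayed within the interval of the value reported (counts: within 1.5 times), 45 moved with the same direction and 1, the Rbpj density ratio, reversed to 1.44 over 10 kb from a gene end; the cause of each was not tested. The Flag-Zmiz1 density ratio (0.850), whose interval includes 1, also crossed 1, at 1.57 in the upper 50% by fold, 1.14 without high-input peaks and 1.27 against segments of 5 to 15 kb. Some of the 102 could not move. The share of broad segments with a peak does not depend on the comparison class, and no high-input peak lay in a broad segment. For bases under the histone marks, the interval used here took the share of bases as a share of segments. For the difference in Rbpj peaks carrying HA-Zmiz1 it was a normal approximation. Neither of these intervals is printed. There were 2029 broad segments at a width of 10000 bp, 417 at 20000 bp and 1615 with gaps up to 2000 bp joined. At 10000 bp the shares were 58.6% with HA-Zmiz1, 8.18% with HA-line ICN1, 79.7% with Rbpj and 35.3% with a gene end, 6 Notch and 6 growth genes had an end inside, and the difference in Rbpj peaks carrying HA-Zmiz1 (25.4 points, broad minus narrower) was 23.4. At 20000 bp they were 84.4%, 20.6%, 94.7% and 44.4%, with 2.88% for Flag-line ICN1, 1 growth gene and 27.7 points. In the upper 50% by fold, 77.2% held HA-Zmiz1, and the ratios were 1.42 for HA-Zmiz1, 2.48 for HA-line ICN1 and 0.599 for Rbpj. With gaps joined, 65.8% held HA-Zmiz1, 10.3% HA-line ICN1, 86.5% Rbpj and 44.3% a gene end, bases under H3K4me3 were 37.9% and under H3K4me1 90.1%, and the ratios were 1.54, 2.33 and 0.641. With peaks at a p of 1e-10 or less, the shares were 58.8%, 8.22% and 75.5%, the HA-Zmiz1 ratio 2.55 and the difference 28.7 points. Without high-input peaks the Flag-line ICN1 ratio (2.23) was 6.08, and with gaps joined 1.15. Against segments of 5 to 15 kb the ratios were 1.37, 2.31 and 0.901 and the difference 16.5 points, and over 10 kb from gene ends it was 19.8. Within 1 kb of a gene end the ratios were 2.08, 2.45 and 0.784. Any overlap with the gene gave 7 growth genes. The fold, joined-gap and width alternatives were set with the design, and the chromosome 15, gene-distance and HA-Zmiz1-at-Rbpj alternatives were chosen after seeing the data. The low counts of Flag-Zmiz1 (9 peaks) and Flag-line ICN1 (12 peaks) limit what their densities can show.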
